A study of Mus musculus with 12 samples.

Results

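The day-night difference in kidney gene expression was examined in mice whose renal tubule cells lack BMAL1, the clock transcription factor encoded by Arntl. Of the 12 whole-kidney RNA-seq libraries of the study, the 6 with titles of the knockout were chosen, 3 taken at zeitgeber time 4 (KO ZT4, replicates 2, 4 and 6) and 3 taken at ZT16 (KO ZT16, replicates 2, 4 and 6). ZT4 lies 4 h after lights on, in the rest phase of mice, and ZT16 lies 4 h into the dark, their active phase, with light and dark alternating every 12 h. The mice carried Bmal1lox/lox, Pax8-rtTA and LC1, in which doxycycline turns on Cre through the Pax8 promoter, and received doxycycline at 2 mg/ml in drinking water for 2 weeks from 8 weeks of age, on a C57BL/6J background with free access to chow. Cre acts in tubule cells in this model, so podocytes, vessels, interstitial and immune cells of the kidney keep Bmal1. The 6 wild-type littermate libraries (WT ZT4 and WT ZT16, replicates 1, 3 and 5) are given for comparison, and the labels describe doxycycline for mice with the 3 alleles, without saying whether the wild-type mice drank it. The labels name neither the sex nor the animal behind a library, so p-values measure the spread between libraries, which may in part be technical.

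The circadian clock is a feedback loop in which BMAL1, paired with CLOCK or NPAS2, binds E-box sequences and switches on Per, Cry, Nr1d1 and Nr1d2 (REV-ERBα and REV-ERBβ). PER and CRY proteins then repress BMAL1, while REV-ERB and ROR proteins act in opposite directions on genes with ROR elements, among them Arntl, Npas2 and Cry1. Day-night rhythms in a peripheral organ can also follow signals from outside its own clock, such as feeding, body temperature and glucocorticoid hormones, to which heat shock genes, metabolic genes and some Per genes are known to respond.

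Gene counts summed to 33357778, 37648890 and 25628887 in KO ZT4 and to 35638932, 34338965 and 25904425 in KO ZT16. KO ZT16 replicate 2 stood apart from its group. Mitochondrially encoded genes took 22.3% of its counts, against 14.1% and 14.0% in replicates 4 and 6 and 12.6% to 12.8% in KO ZT4, and reads that did not align uniquely were 43.0% against 34.0% and 33.3%. In WT ZT16 replicates 1, 3 and 5 the mitochondrial share was 18.7%, 18.8% and 22.4%, and the share not aligned uniquely 39.3%, 38.8% and 41.8%. Counts of KO ZT16 replicate 2 differed from those of KO ZT16 replicates 4 and 6 with a chi-square per degree of freedom of 190.6 and 169.1. KO ZT16 replicates 4 and 6 differed from each other with 4.71. Results are therefore given with all libraries and without KO ZT16 replicate 2. How far the composition of KO ZT16 replicate 2 shaped the other values was not tested. Levels are CPM, counts divided by the TMM-scaled library size, and fold changes are log2 of ZT16 over ZT4 with their SE, from edgeR's quasi-likelihood fit of all libraries. A gene is said to have risen or fallen where its Benjamini-Hochberg adjusted p over all tested genes was under 0.05.

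Arntl itself (ENSMUSG00000055116, chr7:113207465-113314126, plus strand, GRCm38) had 15.95, 14.4 and 16.2 CPM in KO ZT4 and 12.3, 13.4 and 15.0 CPM in KO ZT16. The groups overlapped, and its change of -0.19 ± 0.14 (n = 3 against 3) did not pass the test (adjusted p = 0.336). In wild type Arntl fell by 0.70 ± 0.15 on the log2 scale at night (adjusted p = 0.018). These counts add all exons of the gene over all kidney cell types, and the removed exons are not named in the labels, so Arntl does not check the genotype labels.

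A broad day-night difference was measured in the knockout. Of 16150 genes tested, 1691 differed between ZT16 and ZT4, which is 10.5% of all tested genes, 851 of them higher at night (5.27%) and 840 lower (5.2%). The changes were mostly moderate, and the median size over the called genes was 0.56 on the log2 scale. In 6994 genes (43.3%) the libraries of the 2 times did not overlap, 3404 higher (21.1%) and 3590 lower (22.2%) at night. Of the called genes 78 were at least 2-fold higher and 111 at least 2-fold lower at night. When KO ZT16 replicate 2 was left out, 1309 of 16360 genes were called (8.0%), 630 higher (3.85%) and 679 lower (4.15%). Of the all-library calls 1108 were also called in the same direction without this library, 65.5% of the former and 84.6% of the latter. Leaving out KO ZT4 replicate 2, 4 or 6 left 408, 181 or 213 calls, and leaving out KO ZT16 replicate 4 or 6 gave 2878 or 3629. A set of 140 genes (0.867%) was called in the same direction whichever of the 6 knockout libraries was left out, 62 higher and 78 lower. A fit of the 6 knockout libraries alone called 36 genes (0.227%; 4200 at an unadjusted p under 0.05), of which 35 were also called in the same direction in the fit of all libraries. DESeq2 called 2294 higher and 1376 lower, a greater share of rises than edgeR gave.

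Most core clock genes had no called day-night difference in the knockout. Of 15 tested clock genes with E-box control, Per2 and Per3 rose, Nr1d1 fell and 12 did not pass the test. Over all tested genes, 5.27% rose and 5.2% fell in the knockout. In wild type, 6 of the 15 rose and 1 fell, where 6.5% of all tested genes were called, 2.87% higher and 3.63% lower. With KO ZT16 replicate 2 left out, Bhlhe40, a transcriptional repressor also known as DEC1, was called higher as well (0.42, adjusted p = 0.041). The list's median log2 fold change was 0.05, and 0.23 without that library, against -0.01 over all tested genes in both cases.

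Nr1d1, which encodes REV-ERBα, a repressor that links the clock to metabolism, kept a large day-night difference from a lowered level (ENSMUSG00000020889, chr11:98767932-98775333, minus strand). It stood at 13.1, 18.5 and 17.1 CPM in KO ZT4 and at 4.82, 5.10 and 4.27 CPM in KO ZT16. The groups did not overlap, and KO ZT16 replicate 2 lay between its 2 replicates. Nr1d1 fell by 1.77 ± 0.17 on the log2 scale (adjusted p = 0.000469), a 3.42-fold difference, and by 1.79 without that library. Wild-type means were 60.1 ± 8.49 CPM (SD, n = 3) at ZT4 and 9.27 ± 1.51 CPM at ZT16, a fall of 2.70 ± 0.16. The difference between the 2 changes, 0.93 ± 0.23, did not pass the test (adjusted p = 0.846). Nr1d2, which encodes REV-ERBβ, had 25.8, 27.0 and 26.5 CPM by day and 33.7, 26.03 and 21.0 CPM by night in the knockout, with a change of 0.03 ± 0.14. Wild-type Nr1d2 did not differ between the times either, with means of 105.4 and 104.5 CPM and a change of -0.01 ± 0.14 (adjusted p = 0.957).

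Per2 and Per3 encode PERIOD proteins, repressors of BMAL1 and CLOCK. Per2 (ENSMUSG00000055866, chr1:91415982-91459324, minus strand) stood at 21.1, 21.3 and 24.5 CPM in KO ZT4 and at 33.2, 59.2 and 49.98 CPM in KO ZT16, where replicate 2 was lowest but still above all KO ZT4 libraries. It rose by 1.09 ± 0.17 (adjusted p = 0.00742), and by 1.29 ± 0.11 without replicate 2. In wild type it rose by 2.51 ± 0.19, from 9.73 ± 1.45 to 55.6 ± 1.89 CPM. The night values of the knockout lay on both sides of the wild-type night mean, while the day level was higher in each knockout library than in any wild-type library. Per3 (chr4:151003652-151044665, minus strand) stood at 7.66, 8.997 and 10.01 CPM by day and 18.1, 16.1 and 14.6 CPM by night. Its groups did not overlap, and it rose by 0.87 ± 0.14 (adjusted p = 0.0071), and by 0.79 without replicate 2, against 0.73 ± 0.13 in wild type. Per1 had 10.6, 12.0 and 14.6 CPM by day and 7.80, 17.6 and 17.8 CPM by night, so that replicate 2 lay below and the other 2 libraries above all day values (0.22 ± 0.33, adjusted p = 0.641). Wild-type Per1 changed by 0.60 ± 0.32 and did not pass either (adjusted p = 0.225).

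Sequence upstream of Per3 is shown because it is a called member of the E-box list whose promoter window holds D-boxes, the element bound by DBP, TEF, HLF and the repressor NFIL3. The window is the 250 bases before the RefSeq start site (chr4:151044666-151044915, minus strand, GRCm38.p6), 5′ to 3′, with D-boxes in capitals.
Per3: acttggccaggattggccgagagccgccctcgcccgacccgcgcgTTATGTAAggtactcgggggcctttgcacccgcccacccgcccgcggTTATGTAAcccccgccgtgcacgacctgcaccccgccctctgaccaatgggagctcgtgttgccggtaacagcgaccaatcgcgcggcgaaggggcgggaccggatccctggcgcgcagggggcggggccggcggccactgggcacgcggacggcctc
A D-box was found on either strand in 1.43% of 32851 RefSeq promoter windows of this length. The E-box CACGTG was found in 6.02% of windows and, of the 11 list members in the table, in those of Bhlhe41, Ciart, Per1 and Tef, none of which was called in the knockout. Per2, which was called, is not among the 11, so no window of it was searched. A match is a run of letters and not a measured binding site. The D-box factors Dbp, Tef and Hlf had changes of -0.28 ± 0.20, -0.11 ± 0.09 and -0.16 ± 0.12 in the knockout and did not pass the test. In wild type they had -0.39 ± 0.19, 0.10 ± 0.09 and 0.34 ± 0.12 and did not pass either (adjusted p = 0.192, 0.470 and 0.0942).

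Of the 6 clock genes with ROR elements, only Clock passed the test in the knockout, where 10.5% of all tested genes were called. In wild type 2 of the 6 rose and 2 fell, where 2.87% of all tested genes rose and 3.63% fell. Clock (chr5:76209868-76304792, minus strand), the DNA-binding partner of BMAL1, had 74.8, 70.6 and 70.1 CPM by day and 99.5, 103.2 and 93.8 CPM by night. The groups did not overlap, and it rose by 0.46 ± 0.09 (adjusted p = 0.0128), and by 0.45 without replicate 2, but was not called without KO ZT4 replicate 4 or 6. Wild-type Clock changed by 0.17 ± 0.09 (adjusted p = 0.193), and the difference between genotypes was not called (adjusted p = 1). Cry1, a cryptochrome that represses BMAL1 and CLOCK, had 27.995, 25.9 and 23.4 CPM by day and 23.8, 30.3 and 30.6 CPM by night, with overlapping groups and a change of 0.13 ± 0.13. Npas2, which encodes an alternative partner of BMAL1, had 45.3, 45.2 and 45.0 CPM by day and 24.7, 36.8 and 39.4 CPM by night. All its night values lay lower, but the change of -0.43 ± 0.16 did not pass (adjusted p = 0.0906) and was -0.25 ± 0.11 without replicate 2. Rora changed by -0.20 ± 0.10 and Nfil3 by 0.12 ± 0.25, against 0.09 ± 0.10 and 1.43 ± 0.27 in wild type.

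**Figure D1:**
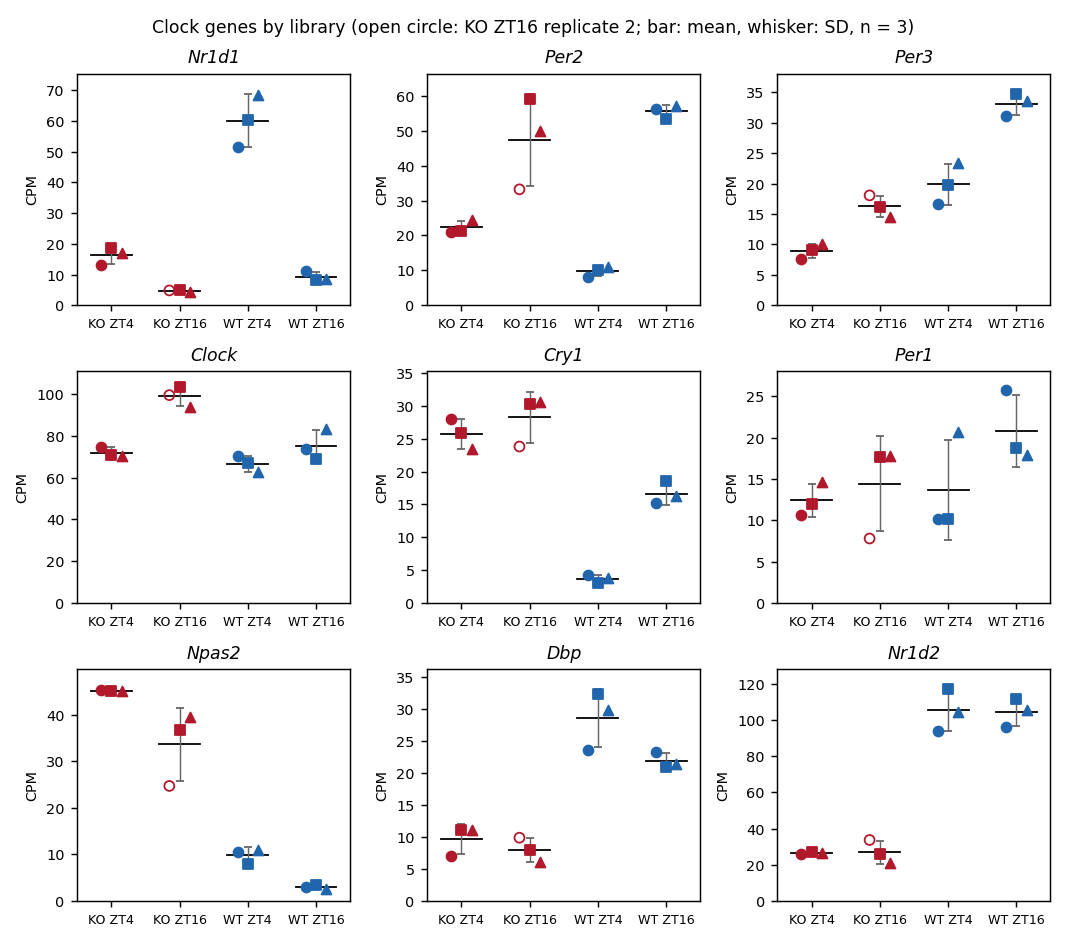
Level of 9 clock genes in CPM (y axis, linear from 0) in each library of the 4 groups (x axis), with KO in red, WT in blue, the mean as a bar and the SD as a whisker (n = 3), and KO ZT16 replicate 2 as an open circle. Nr1d1 was lower and Per2, Per3 and Clock were higher at ZT16 in every knockout library, while Cry1, Per1, Dbp and Nr1d2 overlapped between the times.

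The day-night change itself was compared between genotypes with an interaction test. It called 3 of 16150 genes (0.0186%), with 540 genes at an unadjusted p under 0.05. Cry1 and Stra6l were among the 3, and both were called between the times in wild type and not in the knockout. Cry1 rose by 2.17 ± 0.15 in wild type, and its change was 2.04 lower in the knockout (SE 0.20, adjusted p = 0.00134). Stra6l, which encodes a retinol-binding protein receptor, had 38.1, 45.2 and 38.3 CPM in KO ZT4 and 44.3, 45.6 and 45.9 CPM in KO ZT16. Wild-type Stra6l fell from 32.3 ± 2.23 to 15.1 ± 0.336 CPM, and the changes differed by 1.25 ± 0.12 (adjusted p = 0.00134). Without KO ZT16 replicate 2 the test called 8 genes (0.0489%; 1661 at an unadjusted p under 0.05). Among these were Cry1, Stra6l, Npas2 (1.47 ± 0.17), Per2 (-1.23 ± 0.15), Ddc, the enzyme that makes dopamine (0.88 ± 0.12), Slc38a7, an amino acid transporter (0.65 ± 0.11), and Arhgap26, a GTPase-activating protein (0.64 ± 0.10). With all libraries the interaction of Per2 and Npas2 was not called (adjusted p = 0.245 and 0.456).

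Genes called in both genotypes moved the same way. The knockout and wild-type contrasts share no library, though they share the scaling and the estimate of spread. Of the 1691 genes called in the knockout, 602 were also called in wild type, which is 35.6% of the knockout calls and 57.3% of the 1050 wild-type calls. All 602 changed in the same direction, 273 higher and 329 lower at night. Of the 1089 genes called in the knockout and not in wild type, 1063 (97.6%) had the same sign in wild type. In the fit without KO ZT16 replicate 2, 996 of 1309 knockout calls (76.1%) were also wild-type calls and 994 of these had the same direction. That fit called 5473 genes in wild type (33.5%), and its common dispersion was 0.00749 against 0.0179 with all libraries.

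**Figure D2:**
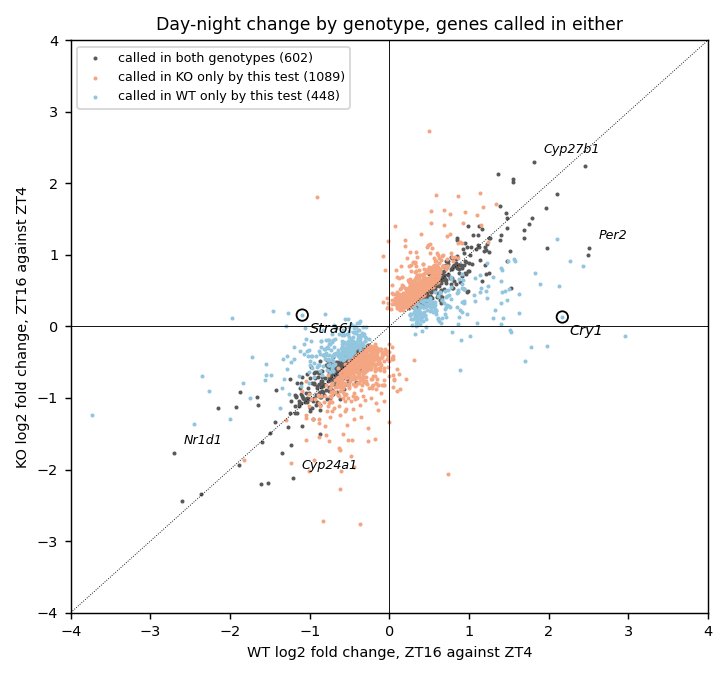
Log2 fold change of ZT16 against ZT4 in KO (y axis) against WT (x axis) for genes called in both (grey, 602), in KO and not WT (orange, 1089) or in WT and not KO (blue, 448), with the line of equal change dotted. Grey points lie in the lower left and upper right, and the circled genes, Cry1 and Stra6l, changed in WT with KO values near 0.

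Most members of the heat shock chaperone list, which includes the mitochondrial Hspd1 and Hspe1, rose at night in the knockout. Heat shock proteins keep other proteins folded, and their genes respond to temperature and to protein load. Of 22 tested members, 13 rose and none fell, where 5.27% of all tested genes rose. The list's median log2 fold change was 0.65. With KO ZT16 replicate 2 left out, 18 rose and the median was 0.68. The count was 10, 6 or 6 without KO ZT4 replicate 2, 4 or 6, and 6 members rose in each of the 6 fits that left out a knockout library, namely Hspa8, Hsp90aa1, Chordc1, Hsph1, Dnajb1 and Dnaja1. In wild type 15 rose.

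Hspa8, the constitutive HSP70 of the cytosol (chr9:40800984-40810087, plus strand), had 356.2, 353.5 and 320.4 CPM in KO ZT4 and 987.2, 757.1 and 685.5 CPM in KO ZT16, with replicate 2 highest and no overlap. It rose 2.36-fold (1.24 ± 0.14, adjusted p = 0.00128), and by 1.06 ± 0.11 without replicate 2, against 1.26 ± 0.14 in wild type. Chordc1, a co-chaperone of HSP90, had 60.6, 49.4 and 51.3 CPM by day and 116.8, 122.5 and 102.5 CPM by night, and rose by 1.08 ± 0.13. Dnajb1, the HSP40 that activates HSP70, had 24.5, 24.4 and 28.7 CPM by day and 44.5, 56.9 and 39.3 CPM by night. It rose by 0.86 ± 0.13, and every night library lay above every day library. The stress-induced HSP70 genes Hspa1a and Hspa1b, near-identical copies whose reads can be misassigned, changed by 0.92 ± 0.30 (adjusted p = 0.0654) and 0.996 ± 0.23 (adjusted p = 0.0252) in the knockout and rose by 2.27 and 2.49 in wild type. Without replicate 2 both were called in the knockout, at 1.18 and 1.18 (adjusted p = 0.0123 and 0.0045). The interaction was not called for either gene. Hspd1 and Hspe1, the mitochondrial chaperonins, changed by -0.08 ± 0.11 and 0.57 ± 0.18 and did not pass.

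Stretches around heat shock elements, the sites known for heat shock factor HSF1, are shown for members that rose and for Hspd1, which did not pass (GRCm38.p6, 5′ to 3′ on the strand of the gene). In each stretch 1 match to GAANNTTC or TTCNNGAA is in capitals, and in Hspd1 a further match, GAAGGTTC, overlaps it.
Dnaja1, chr4:40722338-40722357: cctctaGAAAATTCtacgag
Fkbp4, chr6:128438794-128438813: tctctaGAAAGTTCtccgct
Hspa1b, chr17:34959329-34959348: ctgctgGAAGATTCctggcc
Hsph1, chr5:149636356-149636375: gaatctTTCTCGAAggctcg
Hspb1, chr5:135887796-135887815: acaagaGAAGTTTCcagatg
Hspb1, chr5:135887816-135887835: ggggcaGAACCTTCctggcc
Hspd1, chr1:55088053-55088072: ggaaggTTCTAGAAcggacc
Such an element was found in 12.8% of all promoter windows and in 9 of the 18 list members in the table, 5 of which rose. A longer form, in which GAANNTTC is followed by NNGAA or TTCNNGAA by NNTTC, searched after the values were known, was found in 0.466% of windows and, in this list, in the shared window of Hspd1 and Hspe1. The element was thus present in members with and without a called change.

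The endoplasmic reticulum (ER) chaperones rose as well. The unfolded protein response raises the folding capacity of the ER when secretory proteins accumulate there. Of 20 tested members 13 rose and none fell, where 5.27% of all tested genes rose, with a median log2 fold change of 0.54. Leaving out KO ZT16 replicate 2, 13 rose and the median was again 0.54. The medians of this list and the heat shock list were thus moved little by that library, though the rises of the heat shock list went from 13 to 18. The count of ER rises was 8, 6 or 5 without KO ZT4 replicate 2, 4 or 6. In wild type 10 ER members rose, and no ER member was called for a difference between genotypes.

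Hspa5, the HSP70 of the ER also known as BiP (ENSMUSG00000026864, chr2:34771970-34777547, plus strand), had 676.5, 603.5 and 401.2 CPM in KO ZT4 and 1595, 1332 and 1406 CPM in KO ZT16. Every night library lay above every day library, and Hspa5 rose 2.58-fold (1.37 ± 0.21, adjusted p = 0.00633), and by 1.28 without replicate 2. Creld2, a disulfide isomerase of the ER, had 23.7, 24.5 and 16.1 CPM by day and 68.1, 59.7 and 65.7 CPM by night. It rose by 1.59 ± 0.22 (adjusted p = 0.0044), and by 1.54 without replicate 2, the largest change of the list. Manf, a secreted ER protein released under ER stress, had 41.1, 44.8 and 29.7 CPM by day and 124.0, 99.1 and 108.2 CPM by night and rose by 1.52 ± 0.20. In all 3 genes KO ZT4 replicate 6 was the lowest library. Herpud1, which takes part in the removal of misfolded ER proteins, rose by 0.73 ± 0.08 (adjusted p = 0.00081), and Dnajb9, a co-chaperone of BiP, by 0.63 ± 0.09. Calr, Pdia3, Atf6, Sel1l and Edem1 had values between -0.15 and 0.11 and did not pass. Ddit3, the stress transcription factor CHOP, counted in the list of the ATF4 amino acid response, had 8.61, 7.01 and 10.2 CPM by day and 17.9, 23.6 and 18.9 CPM by night and rose by 1.23 ± 0.20. That list had 4 rises and 1 fall among 18 members, where 5.27% of all tested genes rose and 5.2% fell. It had 1 rise and no fall without any 1 of the KO ZT4 libraries.

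The ER stress response element, CCAAT and CCACG with 9 bases of any kind between them, is bound by ATF6 with NF-Y, and its stretches are shown for the 5 members that rose and for the 3 that did not pass. Each is written 5′ to 3′ in the element's own direction, with the element in capitals (GRCm38.p6).
Hspa5, chr2:34772020-34772048: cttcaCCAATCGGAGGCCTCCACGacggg
Hsp90b1, chr10:86705633-86705661: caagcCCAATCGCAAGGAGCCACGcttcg
Hsp90b1, chr10:86705528-86705556: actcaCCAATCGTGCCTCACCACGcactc
Pdia6, chr12:17266486-17266514: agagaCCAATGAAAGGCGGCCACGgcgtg
Dnajc3, chr14:118937822-118937850: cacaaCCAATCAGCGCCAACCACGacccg
Creld2, chr15:88819515-88819543: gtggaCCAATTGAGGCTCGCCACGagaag
Calr, chr8:84847070-84847098: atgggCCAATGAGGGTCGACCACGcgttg
Canx, chr11:50325795-50325823: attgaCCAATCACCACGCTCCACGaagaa
Syvn1, chr19:6046527-6046555: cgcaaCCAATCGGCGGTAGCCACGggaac
The element, searched after the values were known, was found in 0.113% of all promoter windows and in 8 of the 17 list members in the table. Hspa5, Hsp90b1, Pdia6, Dnajc3 and Creld2 rose by 0.39 to 1.59, while Calr, Canx and Syvn1 had 0.08 ± 0.13, 0.31 ± 0.10 and 0.29 ± 0.18. Without KO ZT16 replicate 2, Syvn1 was called higher (0.51, adjusted p = 0.0153) and Pdia6 lost its call (0.41, adjusted p = 0.0658). In Creld2 the element runs against the gene, as seen in its 250 bases before the start site (chr15:88819396-88819645, plus strand, same capitals).
Creld2: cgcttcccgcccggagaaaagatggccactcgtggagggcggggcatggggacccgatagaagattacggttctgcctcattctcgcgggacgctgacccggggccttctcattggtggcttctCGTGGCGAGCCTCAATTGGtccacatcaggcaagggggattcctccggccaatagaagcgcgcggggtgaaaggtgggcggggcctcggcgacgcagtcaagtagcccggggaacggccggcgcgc

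**Figure D3:**
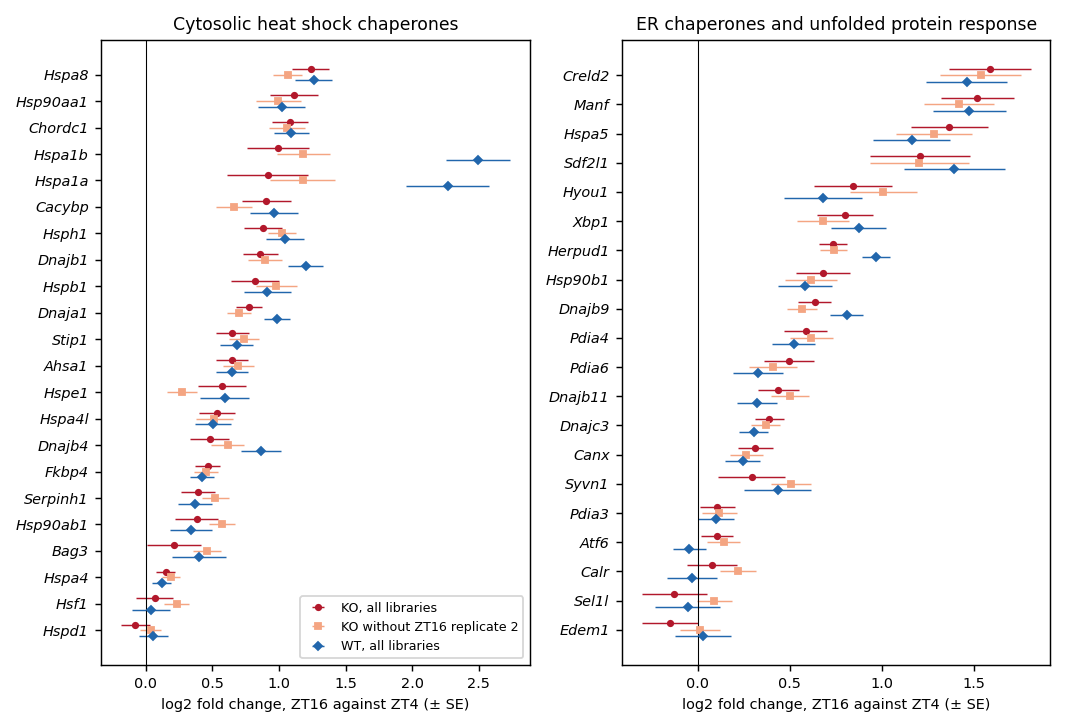
Log2 fold change of ZT16 against ZT4 with its SE (x axis) for the tested members of the heat shock list and the ER list (y axis), in KO with all libraries (red circles), in KO without ZT16 replicate 2 (orange squares) and in WT (blue diamonds). Most members lie right of 0 in all 3 series, and Hspa1a and Hspa1b lie at 2.27 and 2.49 in WT against 0.92 and 0.996 in KO.

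The enzymes that make and break down active vitamin D moved in opposite directions. Cyp27b1, the kidney enzyme that makes calcitriol (ENSMUSG00000006724, chr10:127048250-127053006, plus strand), had 2.38, 1.503 and 1.67 CPM in KO ZT4 and 7.15, 9.41 and 10.8 CPM in KO ZT16. The groups were wide apart, and Cyp27b1 rose 4.92-fold (2.30 ± 0.29, adjusted p = 0.00259), and by 2.44 without replicate 2, against 1.82 ± 0.26 in wild type. Cyp24a1, the enzyme that inactivates calcitriol (ENSMUSG00000038567, chr2:170482708-170497145, minus strand), had 133.9, 89.4 and 83.0 CPM by day and 27.0, 24.1 and 19.3 CPM by night. It fell 4.34-fold (-2.12 ± 0.22, adjusted p = 0.000764), and by 2.23 without replicate 2, against a fall of 1.22 ± 0.21 in wild type. The genotype difference was not called for either gene (adjusted p = 1 for both). Of 24 genes of phosphate, calcium and magnesium handling, 2 rose and 4 fell, where 5.27% of all tested genes rose and 5.2% fell. Without replicate 2, 1 rose and 3 fell. The other falls were those of Slc34a2, a sodium-phosphate cotransporter (-0.82 ± 0.18), Kl, the FGF23 co-receptor Klotho (-0.55 ± 0.14), and Slc20a2, a phosphate transporter (-0.25 ± 0.07), none of which was called without any 1 of the KO ZT4 libraries. Vdr, the calcitriol receptor, had -0.36 ± 0.17 and did not pass (adjusted p = 0.136).

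Alas1, the rate-limiting enzyme of haem synthesis, had one of the smallest adjusted p-values of the comparison (ENSMUSG00000032786, chr9:106233455-106248654, minus strand). It stood at 119.5, 109.5 and 127.4 CPM in KO ZT4 and at 308.9, 315.1 and 298.8 CPM in KO ZT16, with replicate 2 between the others. It rose 2.59-fold (1.37 ± 0.12, adjusted p = 0.000404), by 1.36 without replicate 2 and by 1.47 ± 0.12 in wild type. In the list of NAD synthesis and haem metabolism, 2 of 26 members rose and none fell, and Alas1 alone rose without any 1 of the KO ZT4 libraries. Of 40 genes of xenobiotic metabolism, Alas1 among them, 10 rose and none fell, where 5.27% of all tested genes rose, with 6 rises without replicate 2, 3 without KO ZT4 replicate 2 and 1 without KO ZT4 replicate 4 or 6. Cyp2a5, a cytochrome P450 close in sequence to Cyp2a4, had 9.69, 10.7 and 14.7 CPM by day and 51.7, 27.5 and 20.9 CPM by night. Its rise of 1.52 ± 0.32 was 1.06 without replicate 2, and it was not called when any 1 of the KO ZT4 libraries was left out.

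Igfbp1 and Pck1, genes of fasting and glucose output, moved at night in opposite directions. Igfbp1, an insulin-repressed binding protein of insulin-like growth factors (chr11:7197782-7202546, plus strand), had 6.84, 4.67 and 5.92 CPM in KO ZT4 and 1.37, 0.658 and 1.23 CPM in KO ZT16. Its groups did not overlap, and it fell 5.43-fold (-2.44 ± 0.27, adjusted p = 0.00124), by 2.66 without replicate 2 and by 2.61 ± 0.27 in wild type. Pck1, the rate-limiting enzyme of gluconeogenesis, had 1013, 1087 and 1071 CPM by day and 1676, 2061 and 2273 CPM by night, with replicate 2 lowest of the night libraries. It rose by 0.92 ± 0.14 (adjusted p = 0.00602), and by 1.03 without replicate 2. Slc25a25, a mitochondrial carrier of ATP-Mg and phosphate, had 41.2, 31.3 and 58.7 CPM by day and 117.0, 168.9 and 186.6 CPM by night and rose by 1.85 ± 0.26 (adjusted p = 0.0044). Of 23 genes of glucose transport and gluconeogenesis 2 rose and 2 fell with and without replicate 2, where 5.27% of all tested genes rose and 5.2% fell. Without any 1 of the KO ZT4 libraries 1 rose and 1 fell, Pck1 and Igfbp1.

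Of 37 PPAR targets and fatty acid oxidation genes 14 rose and none fell, where 5.27% of all tested genes rose, with a median of 0.22. Without replicate 2, 10 rose and the median was 0.21, and the count was 3, 1 and 1 without KO ZT4 replicate 2, 4 and 6. Ehhadh, the peroxisomal bifunctional enzyme of fatty acid oxidation, had 640.5, 615.9 and 581.9 CPM by day and 1217, 959.8 and 880.2 CPM by night, with replicate 2 highest. It rose by 0.73 ± 0.12 (adjusted p = 0.00922) and by 0.58 without replicate 2, and it is the member called in all 6 leave-outs. Cpt1a, which admits fatty acids to mitochondria, and Pdk4, which holds pyruvate back from oxidation, had -0.27 ± 0.08 and -0.84 ± 0.29 and did not pass.

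Of 19 glucocorticoid-responsive genes 5 rose and none fell, where 5.27% of all tested genes rose. The count was 5 without replicate 2 as well, and 2, 2 and 1 without KO ZT4 replicate 2, 4 and 6. Fkbp5, a co-chaperone of the glucocorticoid receptor, had 43.2, 51.6 and 44.6 CPM in KO ZT4 and 60.7, 92.3 and 92.3 CPM in KO ZT16. Replicate 2 was the lowest night library and still above the day libraries, and Fkbp5 rose by 0.81 ± 0.14 (adjusted p = 0.0109), and by 0.98 ± 0.09 without replicate 2. It was not called without KO ZT4 replicate 6. Sgk1, a kinase that raises sodium reabsorption, rose by 0.74 ± 0.19, and Tsc22d3, which encodes the glucocorticoid-induced leucine zipper, by 0.54 ± 0.15, against 1.25 and 1.53 in wild type. The rises of Sgk1 and Tsc22d3 were not called without any 1 of the KO ZT4 libraries.

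Immediate early genes, which respond within minutes to growth factors and stress, did not rise as a list in the knockout. Of 23 tested, Ier3 rose, Fosl2 and Ier5 fell and 20 did not pass, where 5.27% of all tested genes rose and 5.2% fell. The list's median was -0.22 with all libraries, -0.54 without KO ZT4 replicate 4 and 0.115 without KO ZT4 replicate 6, so its sign depended on single libraries. Without KO ZT4 replicate 2 or 4 no member was called. In wild type 8 rose and none fell, with a median of 0.99. Fos had -0.28 ± 0.45 in the knockout and rose by 1.78 in wild type, and no member was called for the difference between genotypes.

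Cirbp, an RNA-binding protein induced by cooling, moved opposite to the heat shock genes. It had 41.4, 44.6 and 40.3 CPM in KO ZT4 and 18.5, 16.9 and 21.9 CPM in KO ZT16. Every night library lay under 22 CPM, and Cirbp fell by 1.14 ± 0.16 (adjusted p = 0.0044), by 1.13 without replicate 2 and by 0.99 ± 0.16 in wild type. In its list of 6 cold-inducible RNA-binding genes 2 rose and 1 fell, where 5.27% of all tested genes rose and 5.2% fell. The list's median was 0.37, and 0.11 without replicate 2. Rbm3 and Sfpq of this list rose by 0.53 ± 0.13 and 0.44 ± 0.11, against 0.49 and 0.62 in wild type. Neither was called in the knockout without KO ZT4 replicate 2, 4 or 6.

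**Figure D4:**
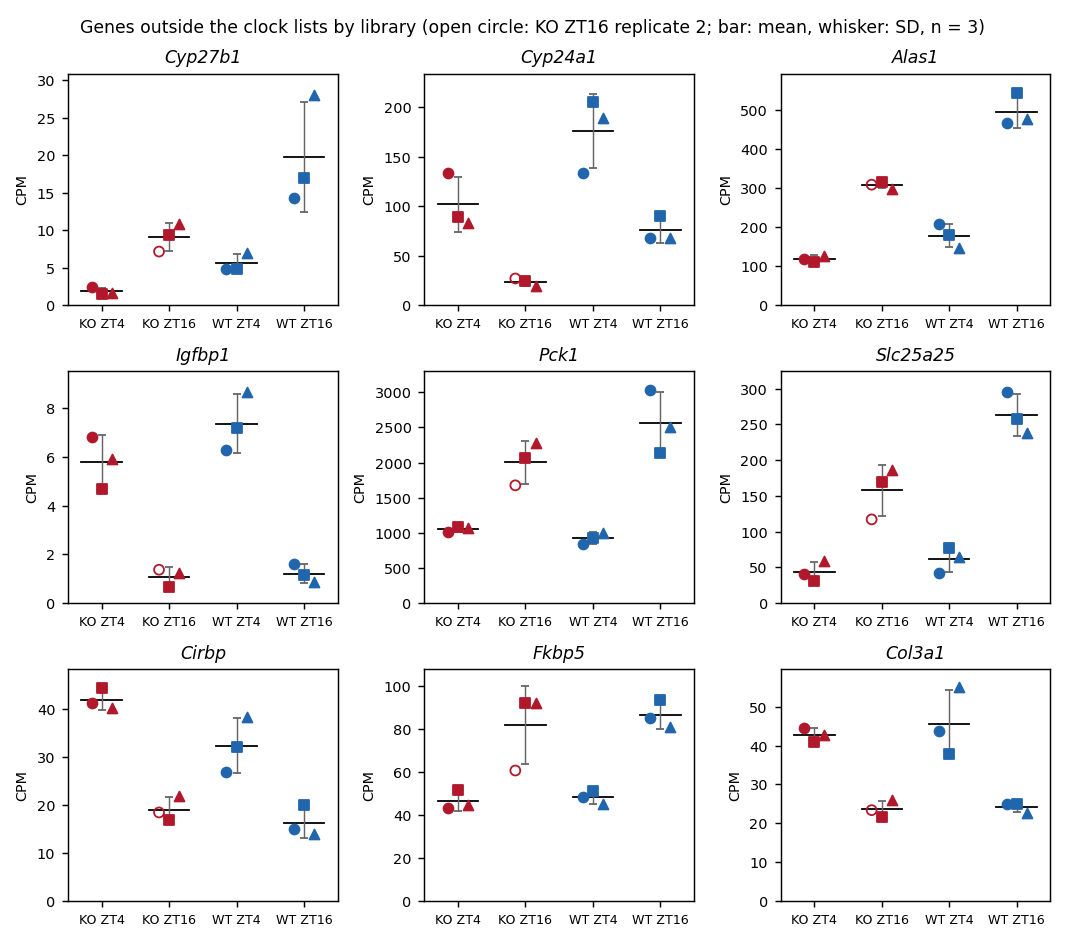
Level in CPM (y axis, linear from 0) of 9 genes outside the clock lists in each library of the 4 groups (x axis), drawn as for the clock genes, with the mean as a bar, the SD as a whisker (n = 3) and KO ZT16 replicate 2 as an open circle. In all 9 genes the KO ZT4 and KO ZT16 libraries were apart, with Cyp27b1, Alas1, Pck1, Slc25a25 and Fkbp5 higher and Cyp24a1, Igfbp1, Cirbp and Col3a1 lower at ZT16.

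Transport genes of the tubule were called at shares near or somewhat above the 10.5% of all tested genes, and most of these calls were lost when a KO ZT4 library was left out. Of 27 genes of sodium transport and the WNK pathway 4 rose and none fell, with none called without any 1 of the KO ZT4 libraries. The rises were those of Sgk1, Kcnj1, the potassium channel ROMK (0.68 ± 0.14), Bsnd, a chloride channel subunit (0.33 ± 0.09), and Scnn1b, a subunit of the epithelial sodium channel (0.32 ± 0.09). Without replicate 2, Bsnd and Scnn1b lost their call (adjusted p = 0.0574 and 0.0505), and Scnn1a, another subunit of that channel, was called (0.42, adjusted p = 0.0389). Slc12a1 and Slc12a3, the cotransporters inhibited by loop and thiazide diuretics, had -0.03 ± 0.07 and 0.03 ± 0.15. Of 15 water channel and vasopressin receptor genes 2 rose, Avpr2 (0.57) and Aqp1 (0.31), and Ptger3 of the same list fell by 0.52 ± 0.13. Avpr2 was not called without KO ZT4 replicate 6, and Aqp1 and Ptger3 were not called without any 1 of the KO ZT4 libraries. The exons of Avpr2 overlap those of Arhgap4 over 81.3% of their bases. Amino acid transporters had 1 rise and 3 falls among 24, and organic ion transporters 2 rises and 1 fall among 30. None of these rises was called without KO ZT16 replicate 2 or without any 1 of the KO ZT4 libraries. The falls of the amino acid transporters numbered 3, 2 and 0 without KO ZT4 replicate 2, 4 and 6.

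Some genes of cells that keep Bmal1 in this model differed between the times as well. In a whole-kidney library, fewer cells of a type and less RNA per cell cannot be told apart. Col3a1, the fibroblast collagen III chain, had 44.6, 41.1 and 42.7 CPM by day and 23.4, 21.6 and 25.9 CPM by night and fell by 0.86 ± 0.12 (adjusted p = 0.00493). Where 5.2% of all tested genes fell, 3 of 8 fibroblast markers fell, Col3a1, Col1a1 (-1.11 ± 0.29) and Pdgfra (-0.47 ± 0.13). Of these, Col3a1 alone was called without any 1 of the KO ZT4 libraries. Dcn and Lum had 0.58 ± 0.23 and 0.63 ± 0.28. The summed level of the 8 markers overlapped between the times, with 234.8 to 254.8 CPM in KO ZT4 and 172.9 to 243.0 CPM in KO ZT16. Itga8, the integrin α8 chain known from mesangial and smooth muscle cells, had 34.3, 30.2 and 33.5 CPM by day and 14.2, 15.5 and 16.1 CPM by night and fell by 1.10 ± 0.09 (adjusted p = 0.000404). Of 9 markers of vascular smooth muscle, mesangium and renin cells, which do not include Itga8, 1 fell and the median was 0.10. The part that a shift in cell make-up had in these differences was not tested.

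The remaining large differences with stable calls included Wipi1, an autophagy protein (-1.30 ± 0.16), Slc35f3, a transporter (-1.21 ± 0.19), Slc7a2, a transporter of cationic amino acids (-1.20 ± 0.21), Dgkg, a diacylglycerol kinase (-1.13 ± 0.20), and N4bp2l1 (-1.10 ± 0.12). Each was called in the same direction in all 6 leave-outs and also fell in wild type, by 0.87 to 1.93 on the log2 scale. Of the 12 largest rises 8 and of the 12 largest falls 9 were called in all 6 leave-outs. They were chosen among genes that were called without KO ZT16 replicate 2, so that leave-out was passed in advance. Of the 100 named genes called in the knockout, 32 were called in all 6 leave-outs and 83 without replicate 2. Both counts include the largest rises and falls.

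Some gene lists moved with KO ZT16 replicate 2. The 85 ribosomal protein genes had a median log2 fold change of 0.55 with all libraries and 0.18 without that library, and 4 rises became 1 rise and 1 fall. The 81 nuclear subunits of oxidative phosphorylation had 0.53 and 0.15, with 1 rise and none, the 38 proteasome subunits 0.38 and 0.20, with 5 rises and 1, and the 11 mitochondrially encoded mRNAs 0.74 and 0.36, with 2 rises in both fits. In wild type, whose contrast uses no knockout library, the medians of these lists were 0.44, 0.45, 0.30 and 0.49 in the same order. The wild-type rises numbered 4, 0, 0 and 1, where 2.87% of all tested genes rose. Without KO ZT4 replicate 4 or 6 no member of these lists was called in the knockout. Without KO ZT16 replicate 4 or 6, where replicate 2 weighs more, 38 and 49 ribosomal protein genes rose. The mitochondrial ribosomal RNAs mt-Rnr1 and mt-Rnr2 rose by 1.41 ± 0.22 and 1.69 ± 0.25, and by 1.09 and 1.30 without replicate 2. The summed level of 9 adipose tissue markers was 176.2 CPM in KO ZT16 replicate 2, 46.6 and 79.6 CPM in the other KO ZT16 libraries and 45.0 to 69.6 CPM in KO ZT4. No adipose marker was called, and the list's median was 1.28 with and 0.30 without replicate 2. Thick ascending limb markers summed to 6581 to 6799 CPM in KO ZT4 and to 7905 to 9717 CPM in KO ZT16. Where 5.27% of all tested genes rose and 5.2% fell, 3 of these 8 markers rose (Kcnj1, Umod and Cldn16) and 1 fell (Ptger3). None of these was called without any 1 of the KO ZT4 libraries, and Cldn16 was also not called without KO ZT16 replicate 2 (adjusted p = 0.0526). The 22 interferon-response and 21 NRF2 genes had no called member with all libraries.

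**Figure D5:**
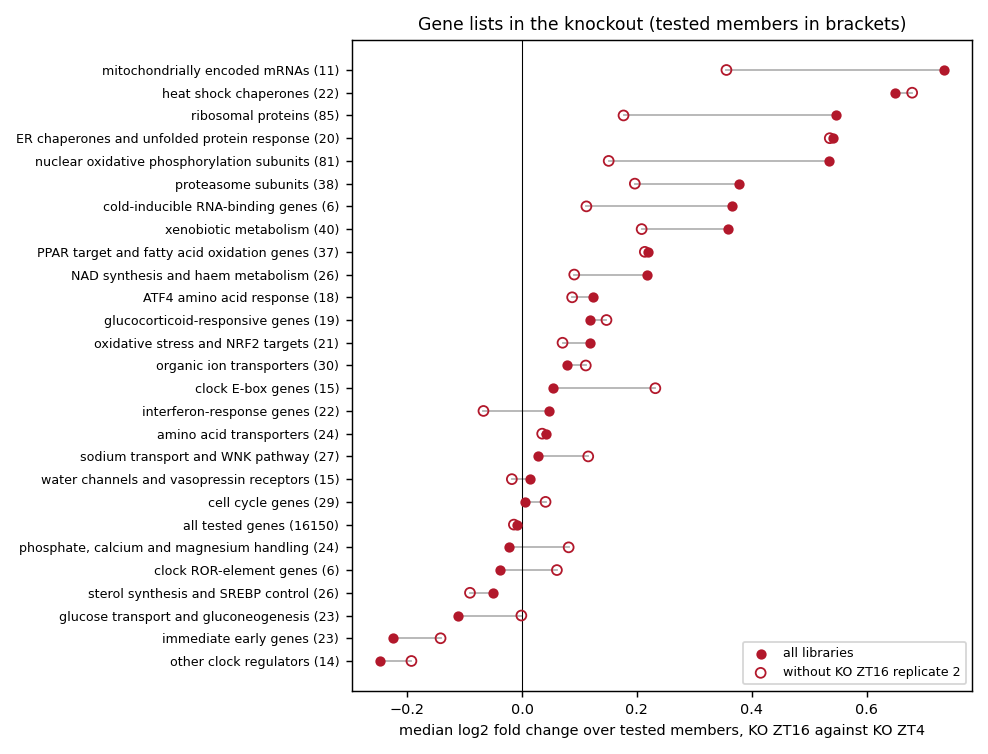
Median log2 fold change of KO ZT16 against KO ZT4 (x axis) over the tested members of each pathway list (y axis, number tested in brackets), with all libraries (filled) and without KO ZT16 replicate 2 (open). The heat shock, ER and PPAR lists moved by 0.03 or less, while the ribosomal, oxidative phosphorylation and mitochondrial mRNA lists moved by more than 0.3.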

How the data were processed

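Whole-kidney poly(A) RNA libraries were made with TruSeq stranded reagents, per the labels. The deposited values are raw read counts per gene, which the authors made with cutadapt 1.2.1, TopHat2 2.0.9 (GRCm38) and HTSeq 0.5.4p3, per the submitters' processing notes. How HTSeq was set for overlaps and strand, and with which annotation, is not given in the sources used here. HTSeq's summary lines (no feature 3.50% to 5.96%, not unique 30.8% to 43.0%) were left out of sizes and tests. Gene counts per library ranged from 25628887 to 38043491.

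The quasi-likelihood test of edgeR 4.0.16 (R 4.3.3) was run after filterByExpr and TMM scaling in 1 fit of all 12 libraries, with 8 residual degrees of freedom. The SE was taken from the log2 fold change and its F statistic. The contrasts were ZT16 against ZT4 in knockout, in wild type, and their difference. P-values were adjusted over all tested genes (Benjamini-Hochberg). Names and positions came from GENCODE M21 (37607 of 38924 IDs), and promoters from RefSeq (GRCm38.p6). The pipeline was tested on simulated data.

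The libraries and the 44 lists (26 of pathways, 18 of markers) were chosen with earlier results of these data known. Named genes were all clock list members, the 12 largest rises and falls with a mean CPM of 5 or more in the knockout, separate libraries and a call with and without KO ZT16 replicate 2, up to 4 called genes of smallest adjusted p per list, and genes called for the genotype difference; some of these genes are not reported here. For the largest rises and falls, separate libraries and a call without KO ZT16 replicate 2 were thus conditions of entry. Other list members printed with values were chosen after their values were seen. Values of Cyp2a4, Cyp2a5, Nat8f5, Hspa1a, Hspa1b, Hspa8 and mitochondrial genes are uncertain, since near-identical copies can share reads, as are those of Dbp, Acadvl and Avpr2, whose exons overlap another gene. Alternatives were RLE and upper-quartile scaling, other filters, DESeq2 1.42.0, limma voom (limma 3.58.1), a replicate block, each genotype alone, and each library left out. Counts per list in each leave-out were added after seeing the data.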

Additional observations from a re-analysis of the deposited data

Results flagged for a closer look

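The day-night change of the genes below differed between genotypes by the interaction test with all libraries or without KO ZT16 replicate 2. With all libraries the log2 difference, knockout change minus wild-type change, was -2.04 for Cry1 and 1.25 for Stra6l. Without KO ZT16 replicate 2 it was 1.47 for Npas2 (adjusted p = 0.00257), -1.23 for Per2 (adjusted p = 0.00424), 0.88 for Ddc (adjusted p = 0.00953), 0.64 for Arhgap26 (adjusted p = 0.0445) and 0.65 for Slc38a7 (adjusted p = 0.0445), which were not called with all libraries (adjusted p = 0.456, 0.245, 0.0748, 1 and 1). Slc38a7 had 21.8, 20.2 and 20.3 CPM in KO ZT4 and 14.6, 23.3 and 22.7 CPM in KO ZT16, and fell in wild type from 21.9 ± 0.872 to 15.3 ± 0.627 CPM (SD, n = 3). Ddc had 183.7, 179.3 and 182.3 CPM in KO ZT4 and 233.1, 189.1 and 195.6 CPM in KO ZT16, with replicate 2 highest, and fell in wild type from 133.0 ± 14.6 to 76.1 ± 5.73 CPM.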

How the results depend on the processing

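The count of genes called in the knockout, 1691, was 3670 with DESeq2 (2294 higher, 1376 lower) and 36 with only the 6 knockout libraries (19 and 17), and ran from 181 to 3629 over the leave-outs (80 to 2200 higher, 101 to 1429 lower). It was 1512 to 1784 under the scalings, filters and limma voom. The wild-type count, 1050, was 2149 with DESeq2, 3557 with only the 6 wild-type libraries, 220 to 621 without each wild-type library and 5473 without KO ZT16 replicate 2. The genotype difference, 3 genes, was 18 with DESeq2, 5 without KO ZT16 replicate 4 and 8 without KO ZT16 replicate 2. The common dispersion was 0.0179 with all libraries, 0.00749 without KO ZT16 replicate 2 and 0.0246 with only the 6 knockout libraries; other causes were not tested.

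The replicate numbers are shared between the times. The deviations of same-numbered knockout libraries correlated at -0.00809, -0.0509 and -0.00285 and those of wild-type libraries at 0.0542, -0.0676 and -0.266. Unlike-numbered libraries ran from -0.0784 to 0.091 in knockout and from -0.186 to 0.224 in wild type. With so few pairs, these values cannot tell whether same-numbered libraries share more than a number. With the replicate block 189 genes were called in the knockout (95 higher, 94 lower), 229 in wild type and 1 for the difference.

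None of the 100 called named genes changed direction under any alternative run. DESeq2 kept all 100 calls, the block 39 and the 6 knockout libraries alone 18. Uncalled genes near 0 did change sign. Nr1d2 was at -0.01 with upper-quartile scaling. Over the leave-outs Nr1d2 ran from -0.17 (without KO ZT16 replicate 2) to 0.18, Bhlhe41 from -0.05 to 0.32, with a negative value rounding to -0.0 without KO ZT4 replicate 2, Usp2 from -0.06 to 0.23, Arhgap26 from -0.04 to 0.16 and Slc38a7 from -0.15 to 0.14 (without KO ZT16 replicate 2).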
